A study of Mus musculus with 13 samples.

Results

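The mRNAs of 10 collagen chains were followed in mouse renal glomeruli, the filtering tufts of the kidney: Col1a1 and Col1a2 (type I), Col3a1 (type III), Col5a1, Col5a2 and Col5a3 (type V), Col6a1, Col6a2 and Col6a3 (type VI) and Col8a1 (type VIII). They were chosen by gene symbol from a table of read counts for 46958 genes, and all 10 were present and passed the filter on low counts. The libraries came from mice aged 6 months on a mixed C57/BL6x129/SVxBALB/c background, with glomeruli isolated on magnetic beads. The genotypes numbered 3: 4 libraries of kFRA mice, labelled LCDD for light chain deposition disease (kidney damage from deposits of a clonal antibody light chain), 4 of DH-LMP2A mice and 5 of wild type (WT) mice. The labels do not describe the DH-LMP2A allele, do not say whether the LCDD mice also carry it, and do not give the promoter or cell type that drives either construct. Each library pooled 3 mice, except WT replicates 3, 4 and 5, which each held 1 mouse. The age is described as an early stage of glomerular scarring.

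Collagens are triple helices in which glycine recurs at regular steps along each chain, with 2 other residues between, so that the chains can pack closely. Types I, III and V form banded fibrils, in which type V nucleates and limits the diameter of type I fibrils; type I is built from α1 and α2 chains, type III from 3 copies of a single chain, and type V from its own α chains. Type VI forms beaded filaments from α1, α2 and α3 chains, and type VIII forms short-chain networks beneath endothelium and in vessel walls. Types VI and VIII are therefore not fibrillar. Mesangial cells, the contractile cells that hold the capillary loops together, make the matrix between those loops, whereas types I and III mark the interstitium and scars in the kidney.

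The start of the longest uninterrupted glycine repeat of 6 chains is shown so that the repeat these chains share can be seen. The types differ in the length of the run, given after the sequences, and not in these starts. Each line is 54 bases of coding sequence from GENCODE M21 on GRCm38, read 5′ to 3′ on the coding strand, and the capitals mark the glycine codon (GGN) that opens each triplet of the repeat. Other glycine codons stay in lower case.
Col1a1: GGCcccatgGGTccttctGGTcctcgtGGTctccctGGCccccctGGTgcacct
Col1a2: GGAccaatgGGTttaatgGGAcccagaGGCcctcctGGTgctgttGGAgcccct
Col5a2: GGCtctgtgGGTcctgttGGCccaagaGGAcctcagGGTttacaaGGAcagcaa
Col6a1: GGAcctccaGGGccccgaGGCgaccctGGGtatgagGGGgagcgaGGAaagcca
Col6a3: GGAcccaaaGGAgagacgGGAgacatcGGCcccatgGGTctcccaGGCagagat
Col8a1: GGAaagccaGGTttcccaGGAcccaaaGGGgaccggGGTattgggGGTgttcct
The Col1a1 stretch lies at chr11:94939451-94939741 (plus strand, exons 6 and 7) and the Col1a2 stretch at chr6:4512406-4515254 (plus strand, exons 6 and 7). The Col5a2 stretch lies at chr1:45423682-45426996 (minus strand, exons 8 and 9), that of Col6a1 at chr10:76719659-76720996 (minus strand, exons 8 and 9) and that of Col6a3 at chr1:90791960-90792445 (minus strand, exons 22 and 23). These 5 stretches cross an intron, and the Col8a1 stretch at chr16:57628039-57628092 (minus strand) lies within exon 4. The longest unbroken run held 337 to 344 glycine triplets in the 6 chains of types I, III and V. It held 87 triplets in Col6a1 and in Col6a2, 61 in Col8a1 and 45 in Col6a3, whose 3284 codons made it the longest chain. In Col8a1, 131 triplets fell into 6 runs of at least 10.

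RefSeq promoter windows on GRCm38.p6 were available for 8 of the 10 members. The 120 bases before the start of Col8a1, the chain with the largest rise below, and of Col3a1, the chain that stood apart in a single LCDD pool, are shown on the coding strand.
Col8a1: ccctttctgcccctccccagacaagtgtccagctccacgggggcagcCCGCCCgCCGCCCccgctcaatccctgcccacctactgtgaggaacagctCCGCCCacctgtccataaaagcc
Col3a1: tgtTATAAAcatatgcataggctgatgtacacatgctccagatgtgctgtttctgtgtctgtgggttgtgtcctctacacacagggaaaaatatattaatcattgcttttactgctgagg
The capitals mark GGGCGG on either strand (a GC box, printed as CCGCCC where it lies on the other strand) in Col8a1 and TATAAA in Col3a1; CCAAT was also searched, and no pair of these motifs overlapped. The windows are chr16:57754738-57754857 (minus strand) and chr1:45311418-45311537 (plus strand). The 250 bases before the start held 4 GGGCGG matches in Col8a1 and 1 TATAAA match in Col3a1. Among 32851 RefSeq windows of 250 bases, 32.7% held GGGCGG, 12.4% TATAAA and 33.8% CCAAT on either strand. A match is a description of the letters only.

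Library totals ran from 16687509 to 30587890 counts, and a floor of 3 counts equalled 0.0971 to 0.185 CPM (counts scaled to a common library size, here with TMM factors). The floor covers counting error only, because the libraries carry no molecular identifiers. The titles carry a 6-digit code with 4 values that genotypes share; LCDD and DH-LMP2A replicates 1 to 4 have the codes in ascending order, WT replicate 1 the first, WT replicate 2 the third and WT replicates 3 to 5 the fourth. What the code stands for is not given. The labels give no sex, and Ddx3y, a Y-linked gene, had 0 or 1 count in WT replicates 1, 3, 4 and 5, 197 in WT replicate 2 and 208 to 2296 in the 8 LCDD and DH-LMP2A libraries, so a comparison with WT is also one between libraries of different sex composition, and the 2 cannot be told apart. All 8 podocyte markers (genes of the filtration cells such as Nphs1) were tested and summed to 7143 to 33610 CPM, so the defining genes of the labelled tissue were present in every library.

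Col1a2 was the most abundant of the 10 mRNAs, and Col1a1 and Col3a1 were the least. The order of those 2 turned on the length used. Their median ratio, Col1a1 to Col3a1, was 1.06 per deposited length, 0.711 from raw counts and 0.667 per length of the first coding transcript. On the scale of CPM per kb of the deposited gene length, the median level over the 13 libraries was 26.1 for Col1a2, 7.36 for Col8a1, 6.63 for Col6a3, 5.13 for Col5a2 and 3.82 for Col5a1. The other 5 chains lay far lower, with medians of 0.554 for Col5a3, 0.536 for Col6a1, 0.349 for Col6a2, 0.157 for Col1a1 and 0.145 for Col3a1. Neighbours in this order overlapped in their ranges, except that every Col5a1 value (2.38 to 6.00) lay above every Col5a3 value (0.171 to 0.935). Col8a1 spanned 5.98 to 37.6, Col6a3 4.66 to 16.1 and Col5a2 2.85 to 16.7 CPM per kb. Col1a1 spanned 0.0721 to 0.660 and Col3a1 0.0758 to 0.485, so the 2 chains best known from scars had the lowest medians of the 10. Their raw counts were 12 to 117 for Col1a1 and 18 to 124 for Col3a1, above the floor in every library. Counts this low add counting error to the spread, and its share of the spread was not tested. The deposited length of Col1a2, 12426 bases, is more than the 5348 bases of its first coding transcript, and the level per transcript length would be higher still.

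**Figure D1:**
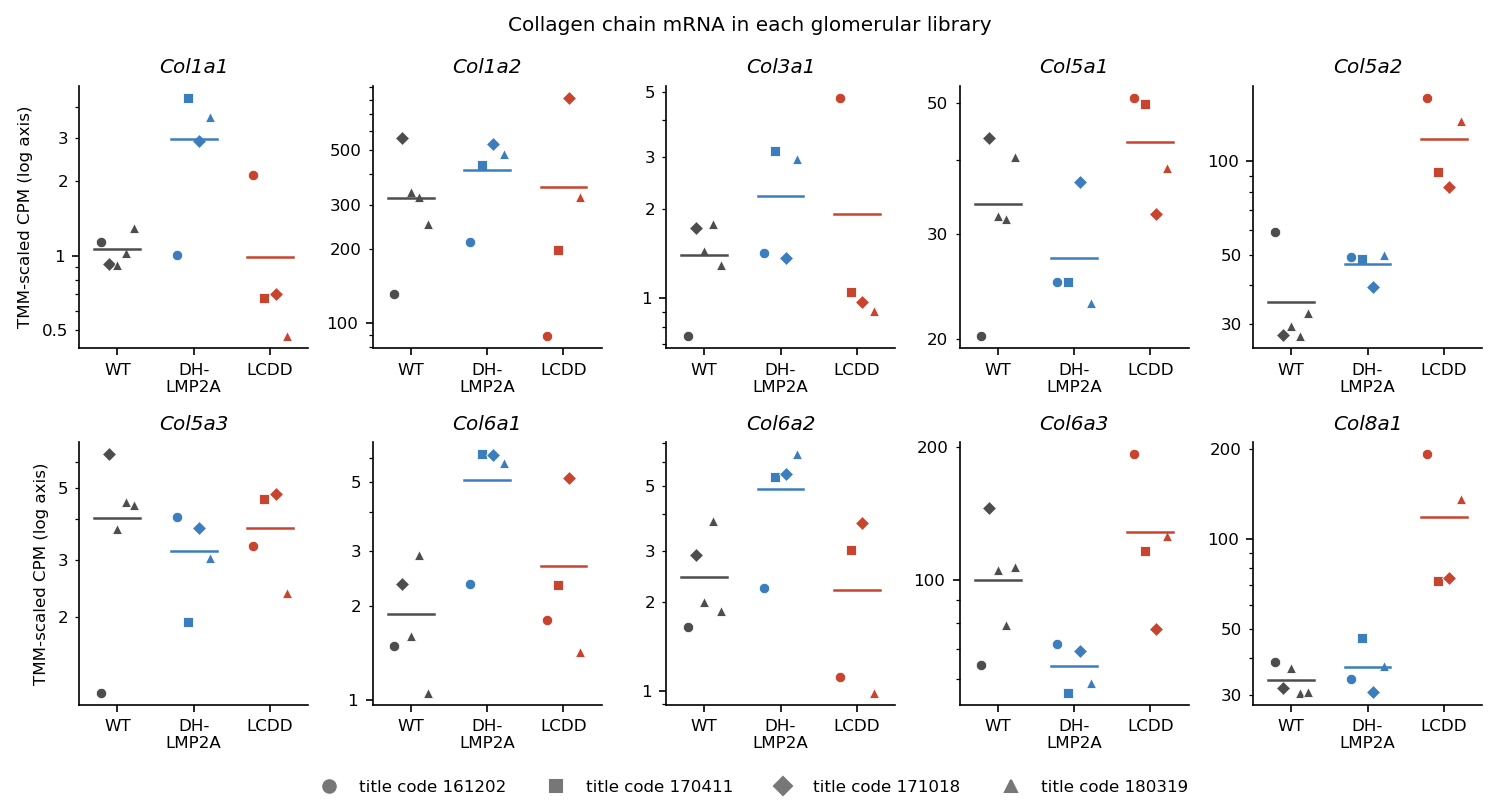
TMM-scaled CPM (log axis, a separate scale in each panel) of the 10 collagen chains in each of 13 libraries, by genotype; a point is a library, its shape the title code, and a bar the mean of the genotype. The 4 LCDD points lie above every other point for Col8a1 and Col5a2, and LCDD replicate 1 (circle) stands alone for Col3a1 at 4.76 CPM.

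LCDD glomeruli carried more Col8a1 and Col5a2 mRNA than DH-LMP2A glomeruli. Col8a1, the α1 chain of the short-chain type VIII network, was at 192, 72.3, 73.7 and 136 CPM in LCDD replicates 1 to 4 and at 34.0, 46.5, 30.7 and 37.6 CPM in DH-LMP2A replicates 1 to 4. All LCDD libraries lay above all DH-LMP2A libraries. The difference was 1.67 ± 0.28 (SE) on the log2 scale, a 3.19-fold rise (edgeR adjusted p = 0.00851), and it held its call in each of the 13 fits that left out a library, with adjusted p of at most 0.0412. Within the 4 title codes the difference was 2.5, 0.64, 1.26 and 1.86 on the log2 scale, higher in LCDD under every code but of unequal size.

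Col5a2, the α2 chain of the fibril-nucleating type V, followed the same order. Its level was 160, 92.7, 82.6 and 135 CPM in LCDD replicates 1 to 4, against 49.2, 48.5, 39.3 and 49.9 CPM in DH-LMP2A. The groups did not overlap, and DH-LMP2A libraries were tightly grouped. The rise was 1.33 ± 0.27 (SE) on the log2 scale, or 2.52-fold (edgeR adjusted p = 0.0233), and 1.70, 0.93, 1.07 and 1.44 within the title codes. The call of Col5a2 is less firm than that of Col8a1: it was lost without LCDD replicate 1 (log2 1.15, edgeR adjusted p = 0.0675), LCDD replicate 4 (1.26, 0.0581), DH-LMP2A replicate 2 (1.36, 0.0853), DH-LMP2A replicate 3 (1.26, 0.0869) or DH-LMP2A replicate 4 (1.36, 0.0741), each with a difference of similar size.

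These 2 of the 10 members were called higher in LCDD than in DH-LMP2A and 0 lower at an adjusted p under 0.05, where edgeR called 1.30% of the 16738 genes higher and 0.693% lower. With the title code as a block the same 2 members were called (edgeR adjusted p = 0.00739 for Col8a1 and 0.00448 for Col5a2), although that fit called 3.24% of all genes higher and 2.86% lower. DESeq2 called 4 members, with Col6a3 higher and Col1a1 lower in addition, among 4.86% of all genes in either direction. Of the 10 members, 3 had LCDD ranges wholly above the DH-LMP2A ranges, against 4.74% of all genes tested.

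The third of these was Col6a3, the long chain that completes the type VI filament. It was at 192, 117, 77.6 and 126 CPM in LCDD replicates 1 to 4 and at 71.9, 55.8, 69.3 and 58.8 CPM in DH-LMP2A. The lowest LCDD library, replicate 3, lay just above the highest DH-LMP2A library. The difference of 1.0 ± 0.27 (SE) on the log2 scale did not pass (edgeR adjusted p = 0.0844), and it passed without LCDD replicate 3 (1.18, edgeR adjusted p = 0.0324) and by DESeq2 (0.98, adjusted p = 0.0151). Col5a1, the α1 chain of type V, was at 50.9, 49.8, 32.4 and 38.8 CPM in LCDD and 25.0, 25.0, 36.8 and 23.0 CPM in DH-LMP2A, with overlap at replicate 3 of both genotypes (log2 0.65 ± 0.23 SE, edgeR adjusted p = 0.215).

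Col1a1, Col6a1 and Col6a2, all low in level, were lower in LCDD than in DH-LMP2A on average without passing the test. Col1a1, the α1 chain that makes up most of type I, was at 2.11, 0.678, 0.700 and 0.473 CPM in LCDD replicates 1 to 4 and at 1.01, 4.33, 2.91 and 3.63 CPM in DH-LMP2A. Under the first title code LCDD was the higher library and under the other 3 codes the lower, with within-code differences of 1.0, -2.54, -1.93 and -2.74 on the log2 scale. The fitted difference was -1.57 ± 0.49 (SE, edgeR adjusted p = 0.139). It was called without LCDD replicate 1 (-2.26, edgeR adjusted p = 0.0315), without DH-LMP2A replicate 1 (-1.86, 0.0422), without all 3 libraries of the first code (-2.55, 0.00237) and by DESeq2 (-1.60, 0.0383).

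Col6a1 and Col6a2, the chains that pair with Col6a3 in type VI filaments, sit in the same cluster on chromosome 10, 85161 bases apart. Col6a1 was at 1.80, 2.33, 5.17 and 1.42 CPM in LCDD replicates 1 to 4 and at 2.36, 6.15, 6.11 and 5.77 CPM in DH-LMP2A. Col6a2 was at 1.11, 3.01, 3.72 and 0.986 CPM in LCDD and at 2.24, 5.33, 5.48 and 6.40 CPM in DH-LMP2A. In both genes DH-LMP2A replicate 1 lay among the LCDD libraries and the other 3 DH-LMP2A libraries above them. The differences were -0.93 ± 0.45 (SE) for Col6a1 (edgeR adjusted p = 0.398) and -1.14 ± 0.46 for Col6a2 (0.294), and LCDD was the lower library under all 4 title codes for both. Thus the 3 type VI chains had estimates of opposite sign in the same comparison, Col6a3 positive and its partners negative.

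Col1a2, Col3a1 and Col5a3 showed wide, overlapping ranges in LCDD against DH-LMP2A. Col1a2, the α2 chain of type I, ran from 88.7 to 815 CPM in LCDD (replicates 1 and 3) and from 213 to 531 CPM in DH-LMP2A (log2 -0.22 ± 0.57 SE, edgeR adjusted p = 0.912). Col5a3, the third type V chain, ran from 2.37 to 4.79 CPM in LCDD and from 1.93 to 4.08 CPM in DH-LMP2A (0.24 ± 0.42, 0.868). Col3a1 gave -0.21 ± 0.54 (0.912), a value that moved to -1.18 without LCDD replicate 1.

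**Figure D2:**
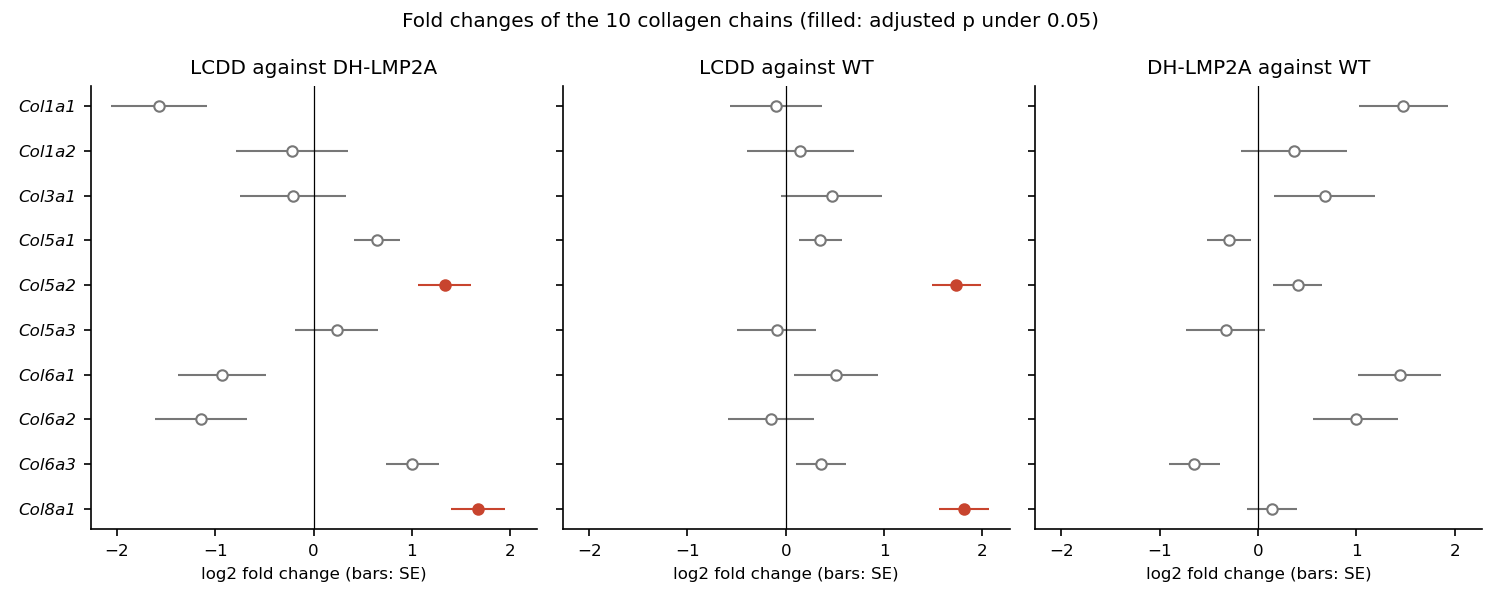
Fitted log2 fold changes (x axis) of the 10 chains in 3 comparisons, first genotype against second, with bars of 1 SE; filled points passed an edgeR adjusted p of 0.05. Col8a1 and Col5a2 are filled in both comparisons of LCDD, and none is filled for DH-LMP2A against WT.

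Against WT, Col8a1 and Col5a2 were again higher in LCDD. WT replicates 1 to 5 had 38.6, 31.7, 37.0, 30.6 and 30.8 CPM of Col8a1, all below the lowest LCDD library at 72.3 CPM. The rise was 1.81 ± 0.26 (SE) on the log2 scale, 3.52-fold (edgeR adjusted p = 0.00304). Col5a2 was at 59.3, 27.7, 29.5, 27.4 and 32.5 CPM in WT replicates 1 to 5, also below every LCDD library, with WT replicate 1 apart from the other 4. Its rise was 1.74 ± 0.25 (SE), 3.33-fold (edgeR adjusted p = 0.00327). Both calls held in all 13 fits that left out a library, and both genes were higher in LCDD under each of the 3 title codes that hold both genotypes. The comparisons share the LCDD libraries and are not independent of each other.

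These were the 2 members called higher against WT and 0 were called lower, where edgeR called 1.30% of genes higher and 0.544% lower and DESeq2 4.34% in either direction. Their 2 ranges were also the only ones of the 10 to lie wholly above WT, against 2.97% of all genes. Genes called higher in LCDD than in both other genotypes made up 0.741% of all genes and included Col8a1 and Col5a2. Both calls against WT were lost with Ddx3y as a covariate (log2 1.70 and edgeR adjusted p = 0.343 for Col8a1, 2.04 and 0.219 for Col5a2) and without the 3 single-mouse libraries (1.71 and 0.155, 1.38 and 0.21), while the fold changes stayed of similar size. None of the other 8 members passed, with edgeR adjusted p of 0.617 or more. Their estimates ran from -0.15 for Col6a2 to 0.51 for Col6a1 on the log2 scale.

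WT libraries bore on the other members as follows. Col6a3 was at 64.5, 145, 105, 79.3 and 107 CPM in WT replicates 1 to 5, so the WT and LCDD ranges overlapped in part. Col5a1 was at 20.2, 43.7, 32.2, 31.9 and 40.6 CPM and Col1a2 at 131, 560, 340, 325 and 253 CPM. WT replicate 1 was the lowest WT library for these 3 genes and also for Col5a3 (1.16 against 3.72 to 6.36 CPM), Col3a1 (0.744 against 1.30 to 1.79 CPM) and Col6a2 (1.65 against 1.87 to 3.8 CPM). It was the highest WT library for Col5a2 and Col8a1.

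No member was called between DH-LMP2A and WT by edgeR, which called 0.275% of genes higher in DH-LMP2A and 0.352% lower, and 4 members had an unadjusted edgeR p under 0.05, as did 12.5% of all genes tested. Col6a1 was at 1.49, 2.35, 1.60, 2.91 and 1.05 CPM in WT, below 3 of the 4 DH-LMP2A libraries, with a difference of 1.44 ± 0.42 (SE) on the log2 scale (edgeR adjusted p = 0.174). Col6a2 was at 1.65, 2.90, 2.00, 3.8 and 1.87 CPM in WT, with a difference of 0.99 ± 0.43 (0.369). Both were higher in DH-LMP2A under each of the 3 shared title codes. Col1a1 was tightly grouped in WT, at 0.921 to 1.30 CPM, and DH-LMP2A replicates 2 to 4 exceeded that range while replicate 1, at 1.01 CPM, did not (1.48 ± 0.45, edgeR adjusted p = 0.19). Col6a3 went the other way (-0.65 ± 0.26, edgeR adjusted p = 0.327). DESeq2 called 2.74% of genes and 1 member, Col6a1 (adjusted p = 0.0373). Col6a1 was also called by edgeR with a tubule marker covariate (1.99, adjusted p = 0.0319), and Col1a1 without the first title code (1.79, 0.0113).

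Col3a1, the chain of type III, was at 4.76, 1.05, 0.970 and 0.907 CPM in LCDD replicates 1 to 4, at 1.42, 3.15, 1.37 and 2.95 CPM in DH-LMP2A and at 0.744, 1.73, 1.44, 1.79 and 1.30 CPM in WT. LCDD replicate 1 was the highest library of all 13 and the other 3 LCDD pools lay below every DH-LMP2A library. Against WT the Col3a1 estimate was 0.47 ± 0.51 (SE, edgeR adjusted p = 0.839) and turned to -0.51 without LCDD replicate 1. The same pool was the highest of the LCDD pools for Col1a1 and the lowest of all 13 libraries for Col1a2, so the 2 type I chains went in opposite directions in it. Its podocyte markers also had the lowest sum of all libraries, 7143 CPM, with the next lowest at 13040 CPM. Per 1000 CPM of podocyte markers, Col1a2 was at 12.4 CPM in this pool and at 12.6 to 26.5 in the other LCDD pools. The range was 13.2 to 21.0 in DH-LMP2A and 8.79 to 16.9 in WT. LCDD replicate 1 was the highest of the 13 libraries for 5 of the 10 members (Col3a1, Col5a1, Col5a2, Col6a3 and Col8a1), compared with 14.7% of all genes tested. That count is a description only. The members were chosen with the high Col3a1 value of this pool known, and some of them rose and fell together. For Dcn, a small proteoglycan that coats collagen fibrils, LCDD replicate 1 had 7.75 CPM against 0.970 to 2.64 CPM in the other LCDD pools. For Mmp2, a gelatinase, it had 247 against 108 to 115 CPM. These 2 genes were picked after their values were seen. The pool was the highest library for 3 of 16 fibril-binding genes (18.8%) and 4 of 12 genes of collagen degradation (33.3%). It also led for 6 of the 9 mesangial markers. Per 1000 CPM of the mesangial markers, Col3a1 was at 0.535 CPM in this pool and at 0.146 to 0.202 in the other LCDD pools, against 0.321 to 0.827 in DH-LMP2A and 0.189 to 0.395 in WT. On that scale LCDD replicate 1 lay within the DH-LMP2A range and above the other LCDD pools and WT.

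Within each library the chains of a given collagen type were far from equal in mRNA. The ratio of Col1a2 to Col1a1, on the scale of CPM per kb, was 22.2 to 615 in LCDD (median 258), 53.0 to 112 in DH-LMP2A (83.2) and 61.3 to 319 in WT (167), so α2 mRNA exceeded α1 mRNA in every library. LCDD replicate 1 had the lowest of these ratios and LCDD replicate 3 the highest. The ratio of Col6a3 to Col6a1 was 5.50 to 39.1 in LCDD (median 25.4), 3.32 to 11.2 in DH-LMP2A (3.94) and 9.98 to 37.2 in WT (22.7). DH-LMP2A libraries other than replicate 1 lay below every LCDD and WT library for this ratio. The ratio of Col5a1 to Col5a2 was 0.324 to 0.606 in LCDD, 0.521 to 1.06 in DH-LMP2A and 0.385 to 1.78 in WT; Col5a2 exceeded Col5a1 in all 4 LCDD pools, in 3 of the 4 DH-LMP2A libraries and in 1 of the 5 WT libraries. Per length of the first coding transcript Col5a2 was the higher in all 4 LCDD, all 4 DH-LMP2A and 4 of the 5 WT libraries, so the count in WT turns on the length used. Col6a1 and Col6a2 stayed close, at 1.07 to 3.08 over all 13 libraries. These ratios are descriptions, and they shift with the length assigned to each gene.

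**Figure D3:**
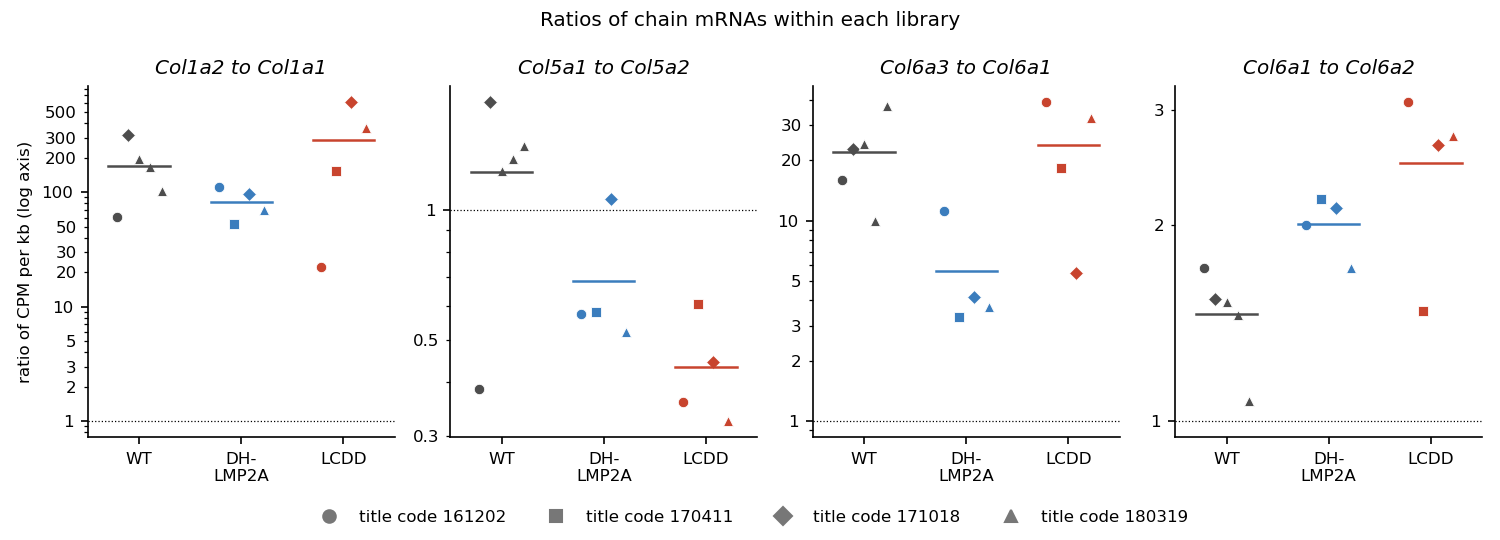
Ratios of CPM per kb between chain mRNAs within each of 13 libraries (log axis), by genotype; a point is a library, its shape the title code, a bar the mean and the dotted line a ratio of 1. Col1a2 exceeds Col1a1 in all libraries (22.2 to 615), and 3 DH-LMP2A libraries have the lowest ratios of Col6a3 to Col6a1 (from 3.32).

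Over the 13 libraries the 4 most correlated pairs of chains were 1 pair of the same type and 3 pairs of different types. These correlations of log2 CPM are descriptions, since the libraries share genotypes and title codes. Col5a2 and Col8a1 had a Pearson r of 0.935 and a Spearman rho of 0.89, r = 0.864 without the 2 libraries farthest from the Col5a2 median (LCDD replicates 1 and 4), and r = 0.731 after the genotype means were removed. Col6a1 and Col6a2 had r = 0.88 and rho = 0.896, with r = 0.902 after removal of the genotype means, and Col5a1 and Col6a3 had r = 0.857 and rho = 0.857, with 0.781. Col1a1 and Col3a1 followed with r = 0.709 and rho = 0.593, 0.538 without DH-LMP2A replicates 2 and 4, and 0.732 after removal of the genotype means. Col1a1 and Col1a2, the chains of a single protein, had r = 0.0665 and rho = 0.044. Col3a1 and Col5a2, whose genes lie 24614 bases apart on chromosome 1, on opposite strands, had r = 0.0446 and rho = -0.275.

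Marker genes of cell types in and around the glomerulus also differed between libraries. Which cells made each chain was not measured. In bulk tissue, more cells of a type and more RNA per cell cannot be told apart. The summed level of 9 mesangial markers was 4793 to 8886 CPM in LCDD, 3586 to 4424 CPM in DH-LMP2A and 3946 to 4911 CPM in WT. Of the 9, 3 were called higher in LCDD than in DH-LMP2A, beside 1.30% of all genes, and 0 without LCDD replicate 1. Against WT 1 was called higher. In LCDD against DH-LMP2A 8 of the 9 estimates were positive, while Rgs5 had a lower mean in LCDD (154 against 349 CPM). Itga8 (1998 against 1089 CPM) and Serpine2 (1402 against 574) had the highest LCDD means and so weigh most in the sum. Pdgfrb (672 against 610 CPM) and Cspg4 (164 against 162) were close in the 2 genotypes. Per 1000 CPM of these markers, Col8a1 was at 12.5 to 21.9 CPM in LCDD, 7.68 to 12.2 in DH-LMP2A and 6.27 to 9.78 in WT. The LCDD range of Col8a1 remained above both others on that scale, narrowly so against DH-LMP2A. Col5a2 per 1000 CPM of mesangial markers was 16.0 to 21.8 CPM in LCDD, 10.5 to 13.9 in DH-LMP2A and 6.01 to 15 in WT, with LCDD again above both. Col6a3 on that scale overlapped in all genotypes (16.2 to 21.6, 14.6 to 18.6 and 16.3 to 31.5 CPM). Over the 13 libraries its log2 CPM followed the mesangial markers with r = 0.875 and rho = 0.879. For Col8a1 the values were r = 0.83 and rho = 0.478, and for Col5a2 r = 0.672 and rho = 0.39. With the podocyte marker sum Col8a1 had rho = -0.61 and Col5a2 rho = -0.742.

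Smooth muscle and renin cell markers, taken here to stand for arteriolar wall attached to glomeruli, went with the other type VI chains. The sum of 6 such markers was 384 to 694 CPM in LCDD, 769 to 1119 CPM in DH-LMP2A and 461 to 667 CPM in WT, with DH-LMP2A above both, although 0 of the 6 were called in LCDD against DH-LMP2A (2 lower with the title code as a block). All 6 estimates were lower in LCDD than in DH-LMP2A. Ren1 had the largest gap in mean level, at 377 CPM in DH-LMP2A, 104 in LCDD and 167 in WT. Smtn was at 245, 232 and 167 CPM. Ren1 thus weighs heavily in the sum, which does not measure arteriolar wall alone. Over the 13 libraries the sum correlated with Col6a1 (r = 0.854, rho = 0.885) and with Col6a2 (r = 0.896, rho = 0.874). Per 1000 CPM of these markers Col6a1 was at 3.43 to 7.45 CPM in LCDD, 3.07 to 7.34 in DH-LMP2A and 2.20 to 4.66 in WT, and Col6a2 at 2.38 to 5.35, 2.92 to 6.59 and 2.96 to 6.09 CPM. All genotypes overlapped on that scale for both genes. Col1a2 followed the podocyte marker sum instead (r = 0.864, rho = 0.764), and per 1000 CPM of podocyte markers it ranged over 12.4 to 26.5 CPM in LCDD, 13.2 to 21.0 in DH-LMP2A and 8.79 to 16.9 in WT.

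The 12 fibroblast markers summed to 797 to 1134 CPM in LCDD, 482 to 998 CPM in DH-LMP2A and 700 to 948 CPM in WT. Of these, 8 had counts in every library, among them Pi16 (277 to 909 CPM), Pdgfra (105 to 220), Cxcl12 (24.6 to 118), Lama2 (9.19 to 25) and Dcn (0.628 to 7.75). Dpt was at 0 in 9 libraries, Lum in 6, Mfap5 in 5 and Clec3b in 1, and the first 3 of these had at most 2, 2 and 3 counts in any library. Col1a1 and Col3a1, which fibroblasts make abundantly, had negative correlations with the fibroblast sum (r = -0.667 and -0.286). Pi16 and Pdgfra made up most of that sum, so these correlations do not measure a relation to fibroblast content. Proximal tubule markers ran from 476 to 1506 CPM in LCDD, 405 to 3187 CPM in DH-LMP2A and 98.2 to 2202 CPM in WT. No member followed their sum with an r beyond 0.524 in either direction, although Col5a2 had r = 0.514 and rho = 0.588. The part of cell content in the differences between genotypes was not tested.

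**Figure D4:**
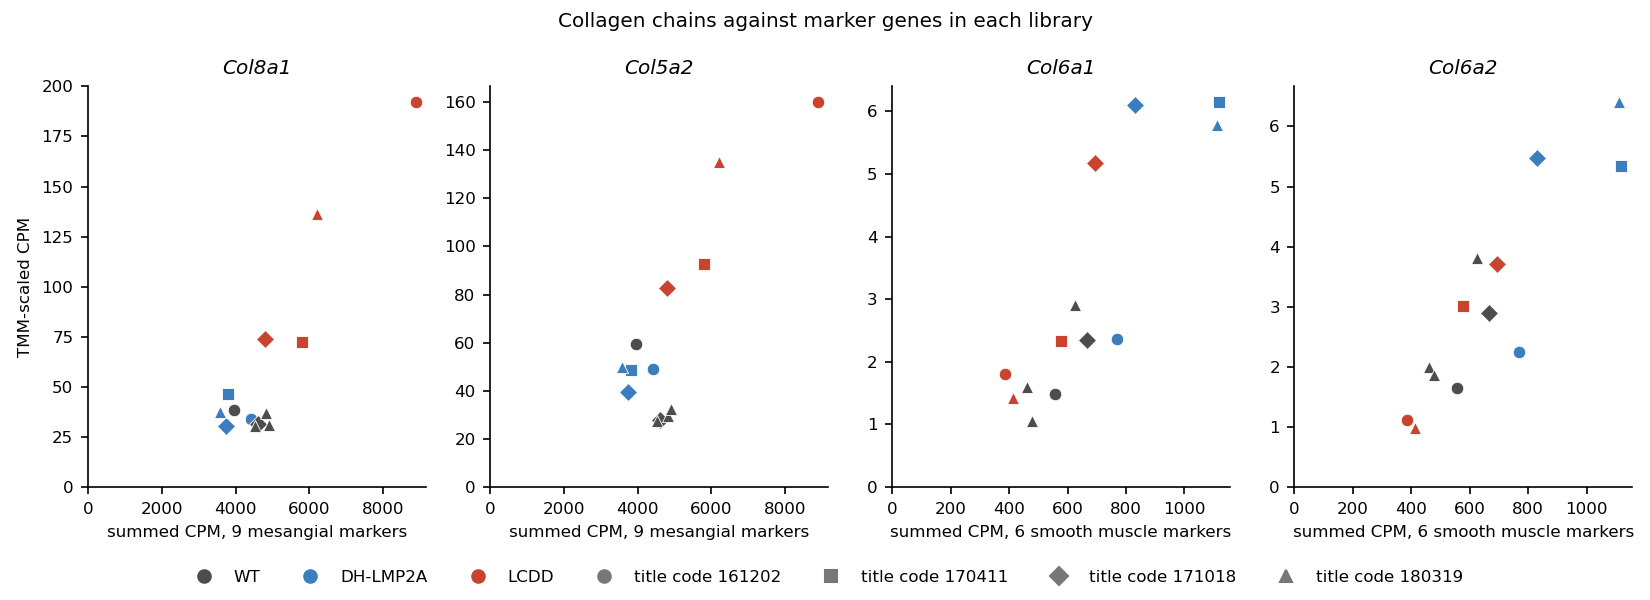
TMM-scaled CPM of 4 chains (y axis) against the summed CPM of marker genes (x axis, 9 mesangial or 6 smooth muscle and renin markers) in 13 libraries; color gives the genotype and shape the title code. LCDD points lie above the others for Col8a1 and Col5a2, and 3 of the 4 also lie at higher mesangial sums than any other library. Col6a1 and Col6a2 rise with the smooth muscle and renin sum (r = 0.854 and 0.896), with scatter. Col6a1 is at 5.17 CPM in LCDD replicate 3 (sum 694 CPM) and at 2.36 CPM in DH-LMP2A replicate 1 (sum 769 CPM).

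Of 87 tested genes that make, bind or break down collagen or encode other chains, 3 (3.45%) were called in LCDD against DH-LMP2A, beside 2.00% of all genes. The lists were chosen with earlier results of these data known, so their counts are read against the background rates above. Of 29 tested genes that fold, modify or cross-link collagen, 0 were called higher and 1 lower in LCDD than in DH-LMP2A, with a median log2 change of 0.089. Of 16 fibril-binding genes 1 was higher and 0 lower (median 0.15), of 11 collagen receptors 0 were called (0.36), of 12 degradation genes 1 was higher (0.75) and of 19 other collagen chains 0 were called (-0.14). The median over all genes was -0.0061. Without LCDD replicate 1 the degradation median was 0.55 and no gene of the 5 lists was called. With the title code as a block 12 genes of these lists were called, 7 higher and 5 lower. That fit called 3.24% of all genes higher and 2.86% lower.

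The gene called lower was Tll1, a protease that trims procollagen propeptides, but it had 1 to 3 counts in LCDD against 5 to 12 in DH-LMP2A (edgeR adjusted p = 0.0228) and 6 to 13 in WT (0.00789), too few for a fold change. Bgn, the proteoglycan biglycan that binds type I and type VI collagen, was at 1384, 912, 679 and 913 CPM in LCDD and 624, 418, 487 and 396 CPM in DH-LMP2A (log2 1.01 ± 0.23 SE, edgeR adjusted p = 0.0448). Ctsk, the collagen-cleaving protease cathepsin K, was at 15.2, 6.29, 4.96 and 6.31 CPM in LCDD and 3.14, 3.00, 2.46 and 3.13 CPM in DH-LMP2A (1.48 ± 0.34, 0.0441). All LCDD libraries lay above all DH-LMP2A libraries for both genes. The 2 calls are weak: that of Bgn was lost in 9 of the 13 fits that left out a library (edgeR adjusted p up to 0.16) and that of Ctsk in 11 (up to 0.134). Without LCDD replicate 1 they stood at 0.80 (0.116) and 1.0 (0.09).

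With the title code as a block, Tnxb, a large glycoprotein that organizes collagen fibrils, was lower in LCDD than in DH-LMP2A (log2 -1.08, edgeR adjusted p = 0.00829, and 0.0587 without the block), and so was Col26a1 (-1.01, 0.0219, against 0.165). Mmp14, a membrane collagenase (0.73, 0.0438, against 0.0664), Crtap, a part of the prolyl 3-hydroxylase complex (0.63, 0.0258, against 0.0847), and Itgb1, the β chain of collagen-binding integrins (0.64, 0.0272, against 0.091), were higher. Ddr2, a collagen receptor kinase, gave 0.58 (edgeR adjusted p = 0.12) and Col6a5, a further type VI chain, -2.04 (0.149); neither was called in either fit.

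Against WT, 2 of the 87 tested list genes (2.3%) were called, beside 1.84% of all genes. Of the 19 other collagen chains 1 was higher in LCDD, and 1 synthesis gene, Tll1, was lower. In the other 3 lists 0 genes were called. The chain was Col6a6, another type VI chain, with 9 to 33 counts in LCDD and 0 to 3 in WT (edgeR adjusted p = 0.0403), a call lost in 9 of the 13 fits that left out a library. The counts of Col6a6 in DH-LMP2A were 3 to 53. Among genes not called, P3h3, a prolyl 3-hydroxylase family member, had a log2 difference of 0.82 (edgeR adjusted p = 0.064), Ctsk 1.23 (0.0716), Ddr2 0.59 (0.1), Prelp 1.03 (0.125), Mmp2 0.90 (0.139) and Dcn 1.59 (0.159). Between DH-LMP2A and WT, 2 genes of the 5 lists were called (2.3% of the 87 tested), beside 0.627% of all genes. Tnxb was higher (42.5 ± 12.4 CPM against 16.4 ± 3.49 CPM, SD, n = 4 and 5, log2 1.38 ± 0.25 SE, edgeR adjusted p = 0.0295) and Colgalt2, which attaches galactose to collagen hydroxylysine, lower (72.6 ± 15.1 against 123 ± 6.16 CPM, -0.77 ± 0.12, 0.0157). Leaving out a library ended the call of Tnxb in 6 of 13 fits and that of Colgalt2 in 4.

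The genes whose levels ran most like those of 4 of the chains were taken from 10983 genes that averaged 5 CPM or more, by Pearson correlation of log2 CPM over the 13 libraries, as a description. For Col8a1 these were Pcgf5 (r = 0.944), Lmo7 (0.94), Naalad2 (0.931) and Tmem38b (0.929), with values of 0.725 to 0.802 once LCDD replicates 1 and 4 were left out. For Col6a1 they were Pkn3 (0.924), Pick1 (0.893), Stc2 (0.88) and Fbln2 (0.864), the last a fibulin of the matrix, with 0.823 to 0.904 without DH-LMP2A replicates 2 and 3. The likeness was weaker for the low chains. For Col1a1 it was led by Msh5 (0.832), Klf12 (0.8), Stmn1 (0.794) and Postn (0.786), the matrix protein periostin, which fell to 0.564 without DH-LMP2A replicates 2 and 4. For Col3a1 it was led by Ednra (0.745), Stmn1 (0.737), Tmem98 (0.734) and Tgfb2 (0.72), and Tgfb2 fell to 0.308 without LCDD replicate 1 and DH-LMP2A replicate 2.

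The genes of the members lie as follows on GRCm38, from the deposited table. Col3a1 (chr1:45311538-45349706, plus strand), Col5a2 (chr1:45374321-45503282, minus) and Col6a3 (chr1:90765923-90843971, minus) share chromosome 1. Col6a2 (chr10:76595762-76623630, minus) and Col6a1 (chr10:76708792-76726168, minus) are neighbours. Col5a1 lies at chr2:27886425-28039514 (plus), Col1a2 at chr6:4504814-4541544 (plus), Col5a3 at chr9:20770050-20815067 (minus), Col1a1 at chr11:94936224-94953042 (plus) and Col8a1 at chr16:57624258-57754737 (minus). In GENCODE M21, Col5a1 is overlapped by 2 genes on the opposite strand and Col5a3 by 1, and the strand setting of the counting is not given in the sources used here, so reads of those genes and their overlapping partners may not have been told apart. Col1a2, Col3a1, Col5a2 and Col6a3 are each overlapped by 1 gene on the same strand, where strand cannot separate the reads. Col8a1, Col1a1, Col6a1 and Col6a2 are overlapped by no other annotated gene.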

How the data were processed

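The deposited table holds raw counts of reads per gene for 13 libraries, made with featureCounts (Subread 1.5.0-p3) after alignment with STAR 2.4.0a to mm10/GRCm38, per the submitters' processing notes, which also name DESeq2. Libraries were stranded poly(A) (TruSeq) libraries, read from both ends, per the labels' protocols. The strand setting of counting and the gene annotation version are not given in the sources used here.

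From these counts, edgeR 4.0.16 in R 4.3.3 (filterByExpr by genotype, minimum count 10, TMM) kept 16738 genes and dropped 30220. All 13 libraries entered one quasi-likelihood fit with genotype as the only term, and p-values were adjusted by Benjamini-Hochberg over all genes tested. A gene is called at an adjusted p under 0.05. Standard errors (SE) were taken as the absolute log2 difference over the root of the F statistic. A prior count of 2 entered log2 CPM. Levels per kb use the deposited length. The scripts were tested on simulated counts. Same-genotype libraries differed by more than counting noise in all 22 pairs (chi-square per degree of freedom 12.6 to 233.9); that they are separate replicates rests on the labels, so the p-values measure the spread between these libraries.

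The title code was taken to pair LCDD with DH-LMP2A libraries, because libraries that share a code departed from the means of their genotypes together, with positive correlations across genes in all 4 pairs (0.153 to 0.593, mean 0.421); these pairings come from the titles. The 12 pairs of unlike code ran from -0.599 to 0.524 (mean -0.139). Departures from a mean cancel within each genotype, so this mean is tied to that of the like-code pairs and is not separate evidence. LCDD replicate 2 correlated more with DH-LMP2A replicate 1 (0.524) than with the library of its own code (0.153). With WT, libraries that share a code did not depart together in every pair (-0.165 to 0.4 for LCDD, -0.159 to 0.568 for DH-LMP2A).

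The 10 members and the gene lists were chosen with earlier results of these data known. Named were all members, up to 2 genes of each pathway list with the smallest p per comparison, and the 4 genes most correlated with each of Col1a1, Col3a1, Col6a1 and Col8a1. Dcn and Mmp2 were singled out for LCDD replicate 1 after their values were seen. Alternatives were DESeq2 1.42.0, RLE factors, no filter, a mean of at least 5 CPM, only the 2 genotypes compared, the code as a block, tubule or Ddx3y covariates, leaving out single-mouse WT libraries or each library in turn, and, chosen after seeing the data, leaving out the first code. No other column of counts was in the table (0 left over).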

Additional observations from a re-analysis of the deposited data

Results flagged for a closer look

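Each group of 4 or 5 libraries was examined for a library far from the rest in log2 CPM (Dixon's test at the 95% level). Of 30 groups of a member in a genotype, 4 held such a library. Chance would give about 1.5 in independent groups, but these groups share libraries. The high Col3a1 value of LCDD replicate 1 was also known before this search, so the count is a description only. Col3a1 was at 2.28 in LCDD replicate 1 against -0.0127 to 0.187 in the other LCDD pools. Col5a2 was at 5.30 in DH-LMP2A replicate 3 against 5.60 to 5.64, and at 5.89 in WT replicate 1 against 4.78 to 5.03. Col6a1 was at 1.29 in DH-LMP2A replicate 1 against 2.55 to 2.64. Of the 4 values, 3 belong to libraries with the first title code.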

How the results depend on the processing

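No call of a member changed sign under any alternative. Of 10 members, those called in LCDD against DH-LMP2A numbered 2, and 4 by DESeq2 and 1 without the single-mouse WT libraries, where Col5a2 stood at an edgeR adjusted p of 0.0501; leaving out each library gave 1 to 3. Against WT they numbered 2, and 0 with Ddx3y as a covariate and 0 without the single-mouse WT libraries. Between DH-LMP2A and WT they numbered 0, and 1 by DESeq2, 1 with the tubule covariate and 1 without the first title code. A mean of at least 5 CPM removes Col1a1, Col3a1, Col5a3, Col6a1 and Col6a2, so no value exists for them there. For LCDD against DH-LMP2A, 334 genes were called, 812 by DESeq2, 153 at 5 CPM or more, 213 from only those 2 genotypes, 1021 with the replicate block, 947 with the tubule covariate and 113 to 484 with a library left out. For LCDD against WT, 308 were called, 726 by DESeq2, 116 at 5 CPM or more, 185 from only those 2 genotypes, 536 with the replicate block, 22 with Ddx3y, 54 without the single-mouse WT libraries and 159 to 441 with a library left out. For DH-LMP2A against WT, 105 were called, 458 by DESeq2, 54 at 5 CPM or more, 562 with the replicate block, 629 with the tubule covariate, 53 with Ddx3y, 69 without the single-mouse WT libraries, 392 without the first title code and 29 to 407 with a library left out. Genes of the 5 collagen pathway lists called in LCDD against DH-LMP2A numbered 3, 10 by DESeq2, 0 at 5 CPM or more, 1 from only those 2 genotypes, 12 with the replicate block, 11 with the tubule covariate, 6 with Ddx3y, 0 without the single-mouse WT libraries, 5 without the first title code and 0 to 7 with a library left out. In LCDD against WT they numbered 2, 9 by DESeq2, 0 at 5 CPM or more, 1 from only those 2 genotypes, 7 with the replicate block, 1 with the tubule covariate, 0 with Ddx3y, 0 without the single-mouse WT libraries, 0 without the first title code and 0 to 5 with a library left out. In DH-LMP2A against WT they numbered 2, 5 by DESeq2, 1 from only those 2 genotypes, 7 with the tubule covariate, 0 with Ddx3y, 0 without the single-mouse WT libraries and 0 to 3 with a library left out. Some log2 estimates of members that passed no test turned sign. With Ddx3y these were, for LCDD against WT, Col1a2 (-0.98), Col3a1 (-0.82), Col6a1 (-0.27) and Col6a3 (-0.18), and, for DH-LMP2A against WT, Col1a2 (-0.81) and Col3a1 (-0.66). With the tubule covariate they were Col5a3 (0.39) and Col6a2 (0.29) for LCDD against WT, and Col5a3 (0.31) and Col8a1 (-0.025) for DH-LMP2A against WT. Without the first title code they were Col3a1 (-0.67) and Col6a3 (-0.031) for LCDD against WT. With a library left out, LCDD against WT ran from -0.79 to 0.14 for Col1a1, -0.66 to 0.47 for Col1a2, -0.51 to 0.70 for Col3a1, -0.33 to 0.10 for Col5a3, -0.015 to 0.72 for Col6a1 and -0.51 to 0.10 for Col6a2, and LCDD against DH-LMP2A from -1.03 to 0.10 for Col1a2 and -1.18 to 0.028 for Col3a1. The cause was not tested. The replicate block changed no other call of a member. The median Col6a1 to Col6a2 ratio of 1.72 was 0.902 from raw counts and 0.869 per length of the first coding transcript, and that of Col6a3 to Col6a1, 15.9, was 43.3 from raw counts. Col5a2 exceeded Col5a1 in 1 of 5 WT libraries per deposited length and in 4 per transcript length. The low counts of Col1a1 and Col3a1 limit their precision.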
